A study of Sus scrofa with 4 samples.

Results

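The longissimus dorsi muscle, the long muscle of the back, of Landrace pigs (LL) was set against that of 3 other breeds by its RNA. A gene counted as set apart in LL where its LL value lay at least 1 log2 unit above the highest, or below the lowest, of the other breeds on log2(FPKM + 1), FPKM being the number of sequenced fragments scaled by transcript length and library size. Of 18208 genes in all, 11507 had a mean of at least 1 FPKM over the breeds and a locus of at least 300 bp, and 294 of these were set apart in LL. They comprised 122 genes that were higher and 172 that were lower in LL than in every other breed. The others were Diannan Small Ear pigs (DSP) and Tibetan pigs (TP), both labelled as indigenous Chinese breeds, and Yorkshire pigs (YY), which like LL were labelled as an introduced breed. In all groups total RNA was taken from frozen longissimus dorsi, and the labels give no treatment, sex, age, feeding or number of animals. The series was made to look for genes related to growth and lipid deposition.

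Each breed is 1 library, so no spread within a breed exists, no test was run, and every difference below is a difference between libraries. Breed, animal and library cannot be told apart. An FPKM value carries no read count, so the depth behind it is unknown. In whole tissue, fewer cells of a type and less RNA per cell cannot be told apart either.

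Back muscle of pigs is made largely of fast fibres, which draw on glycogen and glycolysis for short work and release lactate. Slow fibres use other isoforms of myosin and troponin and burn fatty acids in their mitochondria. Creatine kinase and adenylate kinase keep ATP supplied in both, and a supporting matrix, vessels, nerves and fat cells lie between the fibres.

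The libraries differed in make-up. FPKM summed to 1067280 in LL, against 1450760 for DSP, 880279 for TP and 1226120 for YY. Loci under 300 bp, which the rule leaves out, held 17.7% of that sum in LL and 20.6% in DSP, but 1.39% in TP and 5.55% in YY, and the part of this in the results was not tested. Muscle fibre markers were abundant in LL as labelled, with ACTA1 at 16778 FPKM. Yet the 6 of 9 found summed to 36167 FPKM in LL against 77200 (DSP), 89236 (TP) and 111907 (YY). The entry named MYH7 was highest in LL, and the others found were lowest in LL. DES was lowest by little, at 1829 FPKM in LL against 2150 (DSP), 2129 (TP) and 6462 (YY). Summed markers in LL lay within the range of the other breeds for fibroblasts (8 of 8 found) and vessel lining (7 of 8). The same held for smooth muscle (6 of 6), fat cells (5 of 9), red blood cells (4 of 4) and macrophages (7 of 9). Some single markers lay outside that range, such as PDGFRA and VWF, highest in LL, and CNN1 and ESAM, lowest in LL. Fat cell markers summed to 33.2 FPKM in LL and to between 25.0 and 128 elsewhere. Of these, LEP was at 0 in LL, DSP and YY and at 0.478 FPKM in TP. The 2 of 3 satellite cell markers found summed to 5.93 FPKM in LL against 8.48 (DSP), 7.78 (TP) and 14.2 (YY). Of these, CDH15 was lowest in LL and MYF5 was not, at 1.04 FPKM in LL against 0.360 for DSP, 1.11 for TP and 0.679 for YY.

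Of the genes past the filters, LL had 1.06% set apart higher and 1.49% set apart lower. By the same rule DSP had 1.29% higher and 0.278% lower, TP had 1.89% higher and 2.12% lower, and YY had 2.69% higher and 2.29% lower. LL therefore had fewer outlying genes than TP or YY in both directions and more lower genes than DSP, 172 against 32. LL was the highest library for 2398 genes (20.8%) and the lowest for 3091 (26.9%). The list counts below stand beside these shares. The breed nearest to LL was DSP for 73 of the 122 higher genes and 116 of the 172 lower ones. Against single breeds, 255 genes were at least 1 unit higher and 528 at least 1 unit lower in LL than in DSP, against 1412 and 1301 for TP and 1438 and 1882 for YY. All 3 of these comparisons share the LL library.

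**Figure D1:**
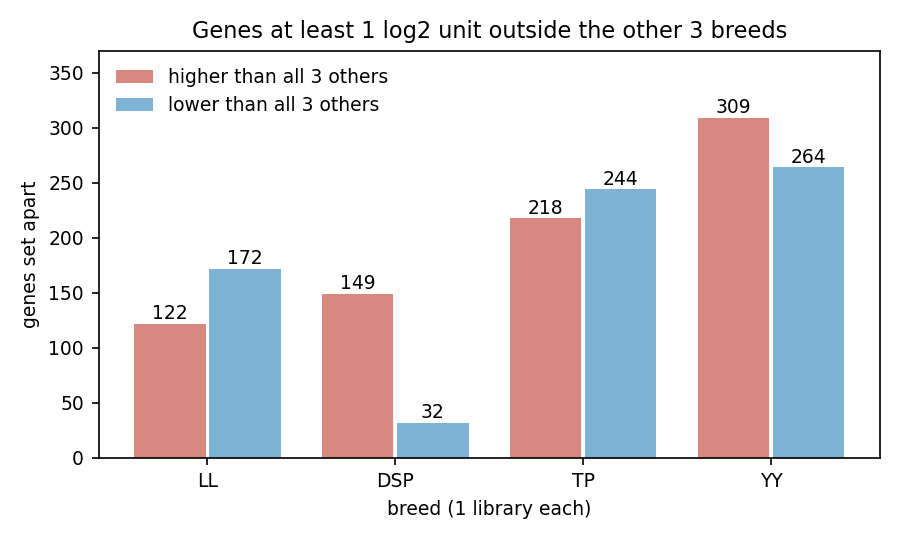
Number of genes at least 1 log2 unit above (red) or below (blue) all 3 other breeds, for each breed on the horizontal axis, among 11507 genes. LL had 122 higher and 172 lower genes, and DSP had 149 and 32.

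The rule makes no allowance for the scale of a library, and the scale decided the balance. As deposited, 41.5% of the genes set apart in LL were higher. The share was 49.4% after median ratio scaling, 78.0% after scaling to equal sums with the 50 most abundant entries removed and 89.1% after scaling to a common sum over nuclear loci of at least 300 bp. The median over all genes of LL minus the mean of the other breeds was -0.00 as deposited, and 0.13 and 0.30 under the last 2 scalings. Group medians are therefore best read against those shifts.

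The lower genes of LL stood at higher levels than most genes. Their median level over the breeds was 34.0 FPKM, against 7.51 FPKM for all genes past the filters. With 1 added to each value, a gene can be called lower only where every other breed has at least 1 FPKM. The rule itself thus keeps low genes out of this group. Among genes with a mean of 1 to 10 FPKM, 0.421% were set apart lower in LL. This share was 2.25% at 10 to 100 FPKM, 5.36% at 100 to 1000 FPKM and 16.7%, or 16 of 96 genes, at 1000 FPKM or more. The median difference between LL and the mean of the others went the same way, at 0.08, -0.10, -0.43 and -0.94 over those level classes. Among the most abundant genes LL lay below each of the other breeds, by a median of 0.77 for DSP, 0.61 for TP and 1.32 for YY.

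**Figure D2:**
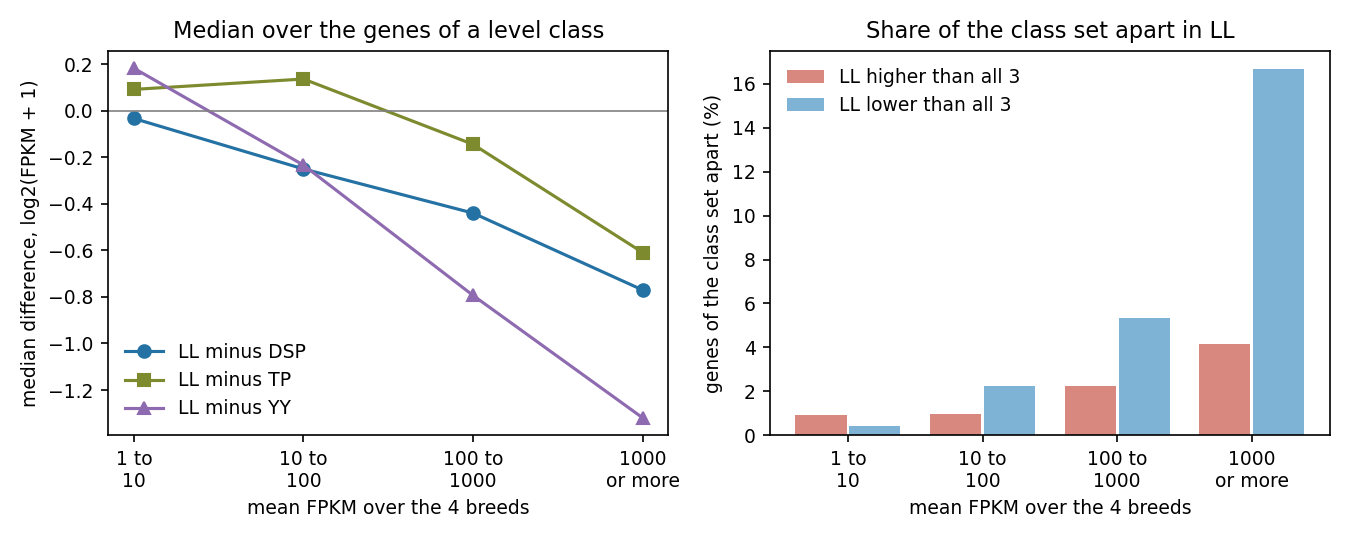
Left, median of LL minus each other breed on log2(FPKM + 1) for 4 classes of mean FPKM; right, percent of each class set apart higher (red) or lower (blue) in LL. The median lay below 0 against all 3 breeds from 100 FPKM on, and 16.7% of the genes at 1000 FPKM or more were set apart lower.

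Glycolysis held the clearest block of lower genes. Of 16 members past the filters, LL was the lowest library for 12. Among these, 8 were set apart lower (SLC16A3, TPI1, LDHA, PKM, ENO3, PGAM2, GAPDH and PGK1). Over all genes LL was lowest for 26.9%, and 1.49% were set apart lower, or 16.7% at 1000 FPKM or more. The same rule set apart none of the 16 in either direction in DSP, TP or YY. The median of LL minus the mean of the others was -1.40, and LL was lower by medians of 1.62 than DSP, 1.27 than TP and 1.68 than YY. Scaled to a common sum over nuclear loci, the median was -1.04 beside 0.30 for all genes, and 6 members remained set apart lower.

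LDHA, the lactate dehydrogenase subunit of fast muscle, stood at 1883 FPKM in LL, against 6342 for DSP, 6495 for TP and 6746 for YY. The other breeds lay close together and LL lay alone below them, with a gap of -1.75 to the nearest. Pyruvate kinase, PKM, had the same shape, at 1011 FPKM in LL against 3453 (DSP), 3321 (TP) and 3664 (YY). Triose phosphate isomerase, TPI1, stood at 647 FPKM in LL against 2319 for DSP, 2717 for TP and 3374 for YY. Its locus overlaps that of another entry, as do those of GAPDH and PGK1, so reads could be split between entries.

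Other steps were lower in LL with a wide spread among the other breeds. The enolase of muscle, ENO3, stood at 1769 FPKM in LL against 5437 (DSP), 9739 (TP) and 14264 (YY). Muscle phosphoglycerate mutase, PGAM2, stood at 509 FPKM in LL against 1566 for DSP, 4486 for TP and 5961 for YY. GAPDH, the dehydrogenase that is often used as a reference gene, stood at 4174 FPKM in LL against 9876 (DSP), 28168 (TP) and 39576 (YY). For these genes DSP was next above LL, and TP and YY lay far above both.

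SLC16A3, the transporter (MCT4) by which fast fibres release lactate, had the largest gap of the lower genes without a small RNA name. It stood at 7.44 FPKM in LL against 56.7 for DSP, 100 for TP and 46.1 for YY, a gap of -2.48. SLC16A5, another member of that transporter family, was also set apart, at 7.73 FPKM in LL against 45.2 (DSP), 23.4 (TP) and 21.7 (YY). PFKM, the phosphofructokinase of muscle, was not lowest in LL, at 1438 FPKM against 3154 for DSP, 1179 for TP and 2102 for YY.

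HK2, the insulin-responsive hexokinase that traps glucose in muscle, went against its list. It stood at 71.7 FPKM in LL against 22.0 (DSP), 11.5 (TP) and 21.8 (YY), a gap of 1.66. It was the one member of the glycolysis list set apart higher in LL. HK1 was also highest in LL, at 6.50 FPKM against 3.75 for DSP, 5.33 for TP and 2.87 (YY), with a gap of 0.25.

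**Figure D3:**
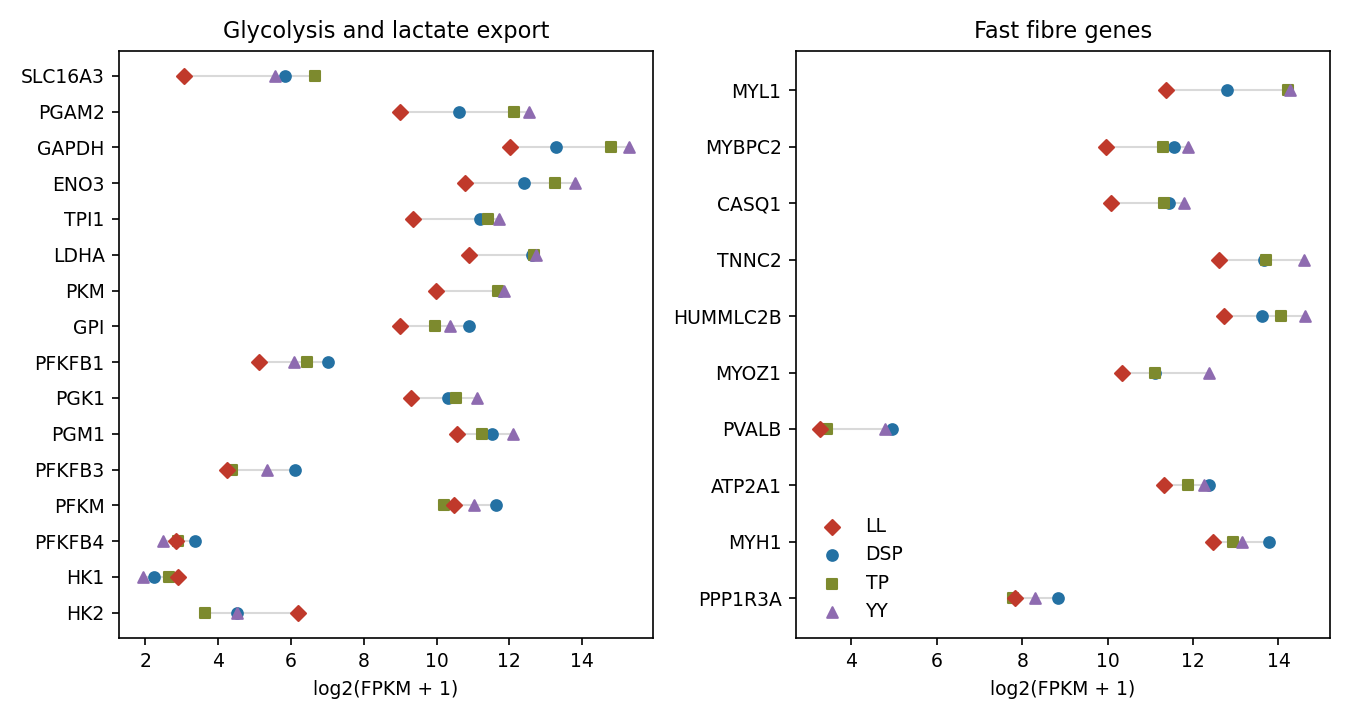
Level of each gene past the filters on log2(FPKM + 1) in LL (red diamonds), DSP (circles), TP (squares) and YY (triangles), for glycolysis (left) and fast fibre genes (right), sorted by LL minus the mean of the others. LL is the lowest point for 12 of 16 glycolysis genes and 9 of 10 fast fibre genes, and HK2 at the foot of the left panel is the exception with LL far to the right.

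Among genes that store and buffer energy, a list chosen after its values had been seen, 12 of 16 were lowest in LL. Those set apart lower were AK1, CARNS1, GPD1, FBP2, CKM, GAMT and PHOSPHO1. Adenylate kinase, AK1, stood at 111 FPKM in LL against 407 (DSP), 974 (TP) and 1116 (YY). CKM, the creatine kinase of muscle, stood at 3271 FPKM in LL against 7845 for DSP, 14054 for TP and 18668 for YY. CARNS1 makes carnosine, a proton buffer of fast muscle, and stood at 34.4 FPKM in LL against 198 (DSP), 152 (TP) and 122 (YY). LL lay below the other breeds by more than their spread for CARNS1, and DSP was again next to LL for AK1 and CKM.

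AMPD3, an AMP deaminase, was the member of that list set apart higher. It stood at 81.2 FPKM in LL against 24.3 for DSP, 1.31 for TP and 28.1 for YY. AMPD1, the deaminase typical of adult muscle, was lowest in LL by little, at 331 FPKM against 479 (DSP), 397 (TP) and 682 (YY).

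Fast fibre genes were lower in LL too. LL was the lowest library for 9 of 10, beside 26.9% of all genes. The list's median was -1.28, and MYL1, MYBPC2, CASQ1 and TNNC2 were set apart. MYL1, a fast myosin light chain, stood at 2635 FPKM in LL against 7079 for DSP, 19249 for TP and 19892 for YY. MYBPC2, the fast myosin-binding protein C, stood at 999 FPKM in LL against 2998 (DSP), 2531 (TP) and 3788 (YY). CASQ1 binds calcium in the store of fast fibres and stood at 1081 FPKM in LL against 2753 for DSP, 2545 for TP and 3550 for YY. In all of these LL lay alone below the other libraries.

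TNNC2, the fast troponin C, stood at 6200 FPKM in LL against 12938 (DSP), 13505 (TP) and 24775 (YY). Under the common sum over nuclear loci only MYBPC2 of this list remained set apart, with a gap of -1.08, and the list's median was -0.91. ACTA1, the actin of the thin filament in all adult fibres, was set apart as well, at 16778 FPKM in LL against 39517 for DSP, 47397 for TP and 50812 for YY. TPM1, a tropomyosin, stood at 4321 FPKM in LL against 15227 (DSP), 10415 (TP) and 20420 (YY).

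Slow fibre genes showed no such shift, with a median of 0.10 over 11 members and none set apart. MYH7, the slow myosin heavy chain, was highest in LL, at 1807 FPKM against 1115 for DSP, 810 for TP and 1391 for YY. The reference table gives this entry's gene ID the name MYH6, a near-identical gene, so which myosin the value belongs to is uncertain. ATP2A2, the calcium pump of slow fibres, was also highest in LL, at 1186 FPKM against 608 (DSP), 539 (TP) and 382 (YY), with a gap of 0.96. The troponins TNNT1 and TNNI1 lay near DSP and below TP and YY, TNNI1 at 495 FPKM in LL against 581 for DSP, 1281 for TP and 2360 for YY.

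Among genes of calcium release and uptake, 14 of 26 were lowest in LL, beside 26.9% of all genes. SLN, CAMK2A and CASQ1 were set apart lower, beside 1.49% of all genes. SLN, sarcolipin, restrains the calcium pump and stood at 1226 FPKM in LL against 2548 (DSP), 5274 (TP) and 8894 (YY). The median of the list was -0.40. Large scaffold proteins of the sarcomere had a median of -0.05 over 28 genes, and MYBPC2 was the one set apart.

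Most listed genes of the respiratory chain were lowest in LL, though few passed the threshold. Of 42 nuclear genes of the respiratory chain, 40 were lowest in LL, with a median of -1.39, and 8 were set apart. COX4I1, a subunit of cytochrome oxidase, stood at 69.2 FPKM in LL against 167 for DSP, 209 for TP and 240 for YY. NDUFA2, of complex I, stood at 28.0 FPKM in LL against 68.8 (DSP), 88.4 (TP) and 124 (YY). By the same rule none of these 42 genes was set apart in another breed, though YY was the highest library for 31. UQCR10, NDUFS7, NDUFAB1, ATP5I and ATP5G3, respiratory chain genes that the list did not hold, were also set apart lower in LL.

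The respiratory chain difference was smallest against DSP, with a median of -0.86, and larger against TP, at -1.59, and YY, at -1.78. Under the common sum over nuclear loci its median was -1.02 and no member remained set apart. The 13 genes encoded in the mitochondrion had a median of -1.15, 11 were lowest in LL and none passed the threshold. MT-CO1, a core subunit of cytochrome oxidase, stood at 11421 FPKM in LL against 18626 for DSP, 31534 for TP and 27575 for YY. The exceptions were MT-ATP8 and ND4L, both short genes, which were higher in LL and DSP than in TP and YY. MT-ATP8 stood at 124337 FPKM in LL against 194058 (DSP), 56242 (TP) and 38219 (YY).

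In the citric acid cycle, which feeds the respiratory chain, 18 of 21 genes were lowest in LL, with a median of -0.77. PC, pyruvate carboxylase, stood at 10.1 FPKM in LL against 34.3 (DSP), 26.8 (TP) and 25.97 (YY). CS, citrate synthase, was not lowest in LL, at 163 FPKM against 250 for DSP, 107 for TP and 118 for YY.

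Most listed ribosomal protein genes were lowest in LL as well. Of 53 cytosolic members 50 were lowest in LL, with a median of -1.46, and of these list members RPS21 was the one set apart, at 231 FPKM in LL against 477 (DSP), 588 (TP) and 1144 (YY). RPL10L and RPL36A, which the list did not hold, were also set apart lower in LL, RPL36A at a locus that overlaps another entry. The size depended on the breed, with medians of -0.48 against DSP, -1.42 against TP and -2.34 against YY. YY stood out upward in this list, with 16 members set apart higher. Of 53 mitochondrial ribosomal proteins 50 were lowest in LL, with a median of -0.93, and MRPL22, MRPS7, MRPS14 and MRPL14 were set apart. Their medians were -0.45 against DSP, -0.95 against TP and -1.39 against YY. YY was the highest library for 51 of these genes, with 5 set apart higher in YY. MRPL22 stood at 7.83 FPKM in LL against 19.8 for DSP, 26.5 for TP and 36.2 for YY. Translation factors had a median of -0.38 over 29 genes and none set apart. These counts and medians are for the values as deposited. The common sum over nuclear loci divides LL values by 0.825 and DSP values by 1.17. It thus raises LL against DSP, the nearest breed by the medians of the ribosomal lists. How many ribosomal genes were lowest or set apart in LL therefore depends on the scale.

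**Figure D4:**
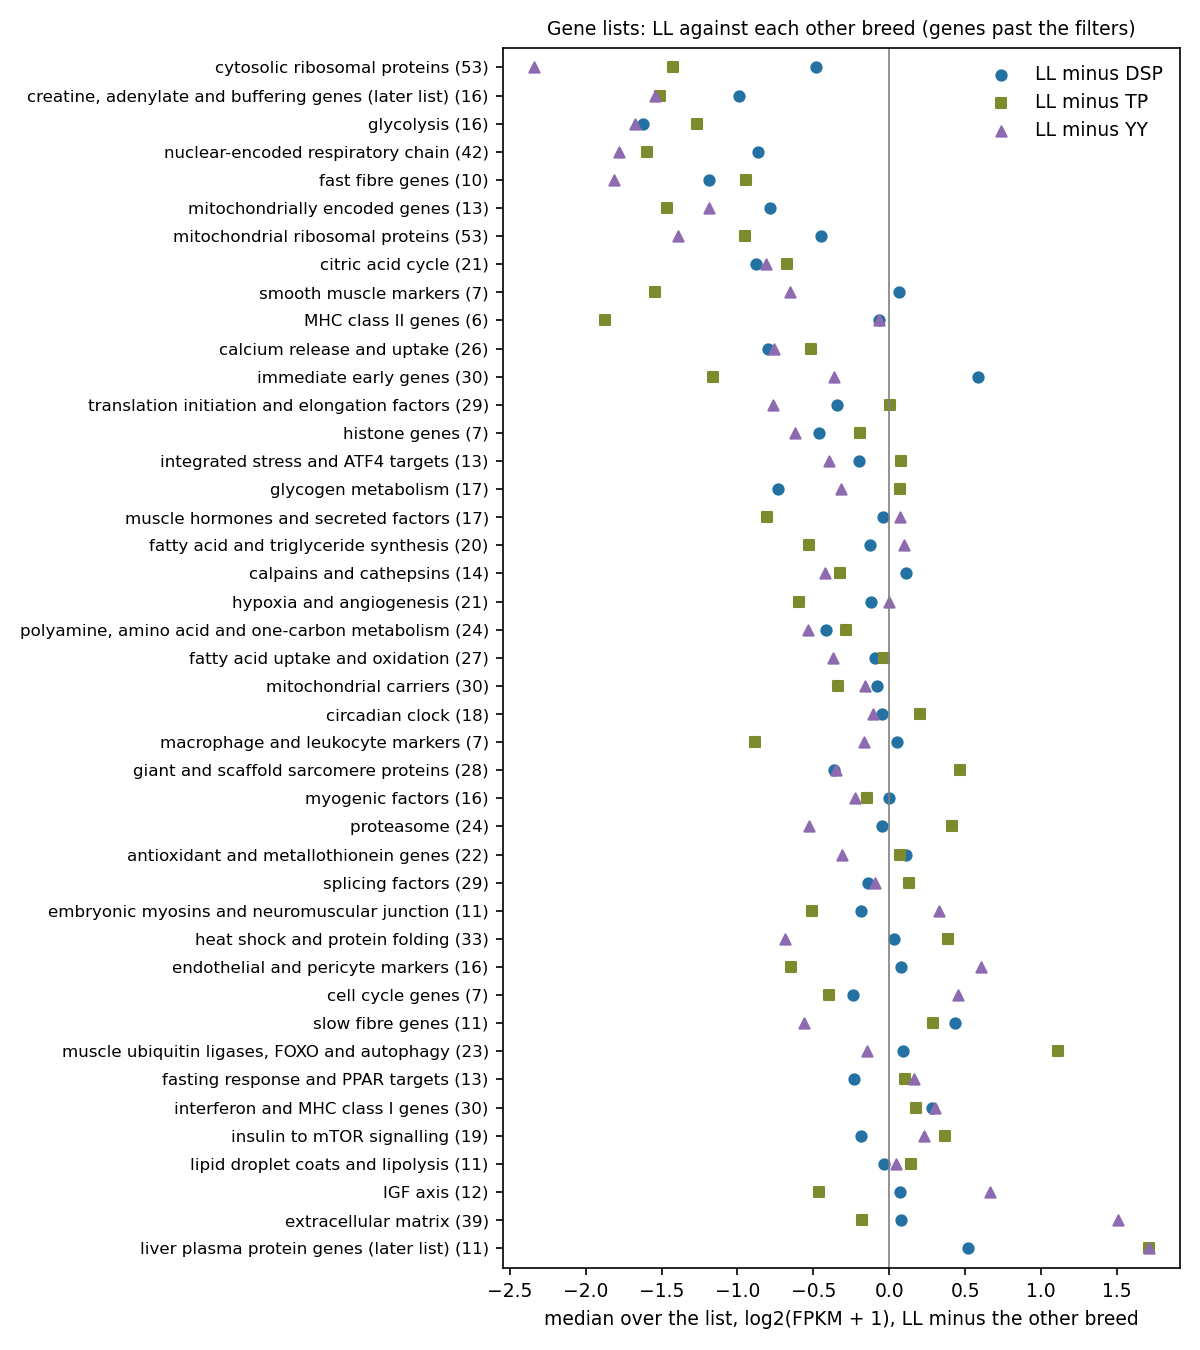
Median of LL minus DSP (circles), TP (squares) and YY (triangles) on log2(FPKM + 1) for 43 gene lists, with the number of genes past the filters in brackets, sorted by LL minus the mean of the others. The top 8 rows, from cytosolic ribosomal proteins to the citric acid cycle, lie left of 0 against all 3 breeds, while most other lists scatter around 0 or differ from 1 breed.

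Lipid genes were not lower as a group. H-FABP, the fatty acid binding protein of heart and muscle (FABP3), was the most abundant gene set apart higher with a name. It stood at 36228 FPKM in LL against 16676 (DSP), 860 (TP) and 1145 (YY), a gap of 1.12. LL and DSP were both far above TP and YY. No other gene on the list for uptake and oxidation of fatty acids was set apart, and the median over 27 was -0.15. CD36, which takes fatty acids up, was highest in LL, at 342 FPKM against 233 for DSP, 186 for TP and 150 for YY.

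Synthesis of fatty acids and triglycerides had a median of -0.21 over 20 genes and none set apart in LL. FASN, the fatty acid synthase, stood at 3.83 FPKM in LL against 9.52 (DSP), 50.4 (TP) and 1.69 (YY). SCD, which makes unsaturated fatty acids, stood at 2.39 FPKM in LL against 4.08 for DSP, 141 for TP and 1.19 for YY. LL lay between YY and DSP for both, and TP lay far above. Of lipid droplet genes FITM1, which helps droplets form, was the one set apart, at 19.7 FPKM in LL against 43.5 (DSP), 68.1 (TP) and 95.2 (YY). PLIN2, which coats droplets, was highest in LL, at 71.3 FPKM against 32.1 for DSP, 5.84 for TP and 50.9 for YY.

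IGFBP5, a binding protein of insulin-like growth factors made by muscle, was the member of the growth factor list set apart. It stood at 6.94 FPKM in LL against 23.1 (DSP), 21.9 (TP) and 15.5 (YY). IGF2, the growth factor itself, was not set apart, because DSP was as high: it stood at 781 FPKM in LL and 682 in DSP, against 9.03 in TP and 9.66 in YY. Myogenic factors had none set apart over 16 genes, with a median of -0.04. MSTN, which limits muscle growth, stood at 11.0 FPKM in LL against 17.8 for DSP, 9.42 for TP and 5.45 for YY, inside the range of the others.

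Other lower genes had varied roles. ENHO encodes adropin, a secreted peptide, and stood at 5.74 FPKM in LL against 30.4 (DSP), 79.6 (TP) and 70.6 (YY). NOR-1 (NR4A3), a nuclear receptor that exercise induces, stood at 4.40 FPKM in LL against 35.4 for DSP, 23.8 for TP and 20.9 for YY. It was the one of 30 immediate early genes set apart, and the median of that list was -0.40. PHPT1, a histidine phosphatase, stood at 25.5 FPKM in LL against 101 (DSP), 112 (TP) and 179 (YY).

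Some of the lower genes, such as CLDN7 and PER1, had nearly equal values in the other breeds. CLDN7, a tight junction protein, stood at 2.57 FPKM in LL against 12.6 for DSP, 12.8 for TP and 12.5 for YY. PER1, a clock gene, stood at 34.6 FPKM in LL against 79.7 (DSP), 70.9 (TP) and 74.4 (YY), and no other clock gene of 18 was set apart. The 4 Schwann cell markers found summed to 12.4 FPKM in LL against 24.2 (DSP), 35.8 (TP) and 17.5 (YY). RAPSN, which anchors acetylcholine receptors at the nerve ending, stood at 5.19 FPKM in LL against 15.1 (DSP), 14.0 (TP) and 39.0 (YY). RAPSN had a wider spread among the other breeds. CIRBP and RBM3, RNA-binding proteins that cold induces, were both set apart, CIRBP at 8.73 FPKM in LL against 21.2 (DSP), 24.3 (TP) and 30.4 (YY).

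Glycogen and amino acid genes each gave a few lower members. PPP1R3B, which brings a phosphatase to glycogen, stood at 14.9 FPKM in LL against 37.1 (DSP), 50.02 (TP) and 36.4 (YY), and was the one of 17 glycogen genes set apart. PYGM, the phosphorylase that breaks glycogen down in muscle, was lowest in LL with a gap of -0.77. BCAT2, the first enzyme of branched-chain amino acid breakdown, stood at 12.2 FPKM in LL against 27.0 for DSP, 50.9 for TP and 39.8 for YY. In that list of 24 genes of amino acid, polyamine and one-carbon metabolism, BCAT2, GAMT and GPT were set apart lower, AMPD3 was set apart higher and the median was -0.19.

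PPP1R1A, RXRG, SNTB1 and FRZB, which stood in none of the lists, were set apart lower. PPP1R1A, an inhibitor of protein phosphatase 1, stood at 810 FPKM in LL against 2165 (DSP), 2859 (TP) and 4148 (YY). RXRG, a retinoid receptor, stood at 7.60 FPKM in LL against 39.3 for DSP, 22.1 for TP and 65.7 for YY. SNTB1, a syntrophin of the dystrophin complex, stood at 17.4 FPKM in LL against 94.4 (DSP), 65.2 (TP) and 55.4 (YY). DSP was the highest breed for SNTB1 and YY for the other genes before it. FRZB, a secreted inhibitor of Wnt signalling, stood at 7.59 FPKM in LL against 37.3 for DSP, 65.4 for TP and 27.1 for YY. LL was alone below for all of these.

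Several lists held no gene set apart in LL, which is near the shares over all genes, 1.06% higher and 1.49% lower. They included the proteasome (24 genes, median -0.03), muscle ubiquitin ligases with FOXO and autophagy genes (23 genes, median 0.17), insulin to mTOR signalling (19 genes, median 0.24) and mitochondrial carriers (30 genes, median -0.14). The medians of these lists lay near 0, unlike those of the respiratory chain or glycolysis. Of the 30 carriers, LL was lowest for 11 and highest for 3. SLC25A4 and SLC25A3, the most abundant carriers, were among the lowest, SLC25A4 at 572 FPKM in LL against 1361 (DSP), 873 (TP) and 1859 (YY). More than 4 genes were set apart lower in LL in 3 lists, which were glycolysis, the nuclear respiratory chain and the energy-buffering genes. The energy-buffering list was chosen after its values had been seen, so that choice shaped its count.

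The higher genes differed in kind from the lower ones. Of the 122, only 62 had a name, against 150 of the 172 lower ones, and 12 had the name of a small RNA. Another trait was that 15 were listed at 0 in all of the other breeds, and these passed the mean filter through LL alone. SNORA51, a small nucleolar RNA, was listed at 524 FPKM in LL and at 0 in DSP, TP and YY, and SNORA52, SNORA55 and SNORA62 had the same pattern. The highest value among entries with an ID only was 7211 FPKM in LL, for ENSSSCG00000018331, which was also at 0 elsewhere. These loci overlap others, and an FPKM of 0 can be a failed estimate, so no fold is given. Without small RNA names and ID-only entries, 50 higher and 149 lower genes were set apart in LL.

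GNG8, a G protein gamma subunit, was the named gene listed at 0 in all other breeds that overlapped no other entry, at 22.3 FPKM in LL. FXYD2, which modulates the sodium pump, stood at 43.4 FPKM in LL against 0 (DSP), 3.36 (TP) and 2.45 (YY). Values near 0 in the other breeds leave the size of these gaps loose. SERP1, a protein of the endoplasmic reticulum, stood at 339 FPKM in LL against 99.3 for DSP, 28.8 for TP and 53.2 for YY. ZDHHC9, an enzyme that attaches palmitate to proteins, stood at 122 FPKM in LL against 22.1 (DSP), 4.36 (TP) and 45.9 (YY).

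ARL3, PLDN and STMN1, which stood in none of the lists, were set apart higher. ARL3, a small GTPase of the cilium, stood at 273 FPKM in LL against 113 (DSP), 18.3 (TP) and 14.3 (YY). PLDN, a subunit of a complex that forms lysosome-related organelles, stood at 814 FPKM in LL against 370 for DSP, 34.8 for TP and 49.96 for YY. LL and DSP were together far above TP and YY for both, as for H-FABP. STMN1, stathmin, which binds tubulin, stood at 63.3 FPKM in LL against 10.9 (DSP), 25.7 (TP) and 26.5 (YY), with DSP the lowest.

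Genes that interferon induces held 3 of the higher ones, from a list of 30, beside 1.06% of all genes. IRG6 (RSAD2, viperin) stood at 36.8 FPKM in LL against 7.57 for DSP, 1.61 for TP and 0.563 for YY, a gap of 2.14. MX1, an antiviral GTPase, stood at 12.2 FPKM in LL against 4.24 (DSP), 2.44 (TP) and 1.19 (YY). MX2 stood at 12.2 FPKM in LL against 5.25 for DSP, 3.27 for TP and 0.431 for YY. The order LL, DSP, TP and YY held in all of these. The list as a whole had a median of 0.20 over 30 genes, with LL highest for 10 and lowest for 4. ISG15 was not highest in LL, at 5.54 FPKM against 1.98 (DSP), 5.57 (TP) and 3.06 (YY), and B2M, the partner chain of MHC class I, was lowest in LL, at 186 FPKM against 250 for DSP, 582 for TP and 304 for YY.

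In the matrix list 1 of 39 genes, TNC, was set apart higher in LL, beside 1.06% of all genes. SPP1 belonged to the list of secreted factors, and LOXL4 and ADAMTS8 stood in none of the lists. TNC, tenascin-C, stood at 7.81 FPKM in LL against 1.68 (DSP), 0.914 (TP) and 0.194 (YY). TNC passed the filter on mean FPKM only through its LL value, so the filter itself shaped this count. LOXL4, an enzyme of the family that crosslinks collagen, stood at 13.3 FPKM in LL against 1.10 for DSP, 0.504 for TP and 1.54 for YY. ADAMTS8, a matrix protease, stood at 41.7 FPKM in LL against 6.60 (DSP), 4.48 (TP) and 0.995 (YY). LL lay far above a low level in the other breeds for each of these. SPP1, osteopontin, stood at 15.2 FPKM in LL against 4.86 for DSP, 1.33 for TP and 1.99 for YY. The matrix list as a whole gave medians of 0.08 against DSP, -0.18 against TP and 1.51 against YY. It had 21 genes set apart lower in YY. COL1A1, the main fibrillar collagen, stood at 240 FPKM in LL against 355 (DSP), 234 (TP) and 30.0 (YY).

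In a list of plasma proteins that the liver makes, added after its values had been seen, LL was highest for 6 of the 11 genes past the filters and 4 were set apart higher in LL. AGT, angiotensinogen, was not among these, at 5.97 FPKM in LL against 8.68 (DSP), 16.7 (TP) and 4.79 (YY), nor was ITIH4, at 16.8 FPKM in LL against 17.3 for DSP, 19.1 for TP and 13.1 for YY. ALB, albumin, stood at 21.6 FPKM in LL against 6.55 for DSP, 0.0565 for TP and 0.231 for YY. FGB, the beta chain of fibrinogen, stood at 10.6 FPKM in LL against 1.29 (DSP), 0.159 (TP) and 0.125 (YY). FGG, also set apart, stood at 3.82 FPKM in LL against 0.192 (DSP), 0 (TP) and 0.120 (YY). FGB and FGG passed the filter on mean FPKM only through their LL values, so the filter itself shaped the count set apart. HP, haptoglobin, stood at 19.1 FPKM in LL against 5.30 for DSP, 1.62 for TP and 1.55 for YY. DSP was second for ALB, FGB and HP, and TP and YY were near 0 for ALB and FGB. APOC3 was at 14.1 FPKM in LL and 7.98 in DSP and listed at 0 in TP and YY, with a gap of 0.75, short of the threshold.

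Of 32 such genes, LL was the highest library for 24, DSP was above TP and YY for 25, and only 11 passed the filters. LL was highest for 20.8% of all genes past the filters. No such share was taken over genes that did not pass, or for DSP above TP and YY. The list was also chosen with its values known, so these counts only describe it. The FPKM of the 32 genes summed to 126 in LL against 69.8 (DSP), 58.7 (TP) and 28.2 (YY). The number listed at 0 was 1 in LL and 1 in DSP, against 14 in TP and 13 in YY. Other epithelial markers were close to 0 in LL, with EPCAM at 0.120 FPKM and KRT18 at 0.106. The part of RNA from another tissue in these values was not tested.

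A few other higher genes belong to listed groups. ACTC1, the cardiac actin that immature skeletal fibres also use, stood at 47.5 FPKM in LL against 10.7 for DSP, 18.3 for TP and 15.3 for YY. GSR, glutathione reductase, stood at 16.9 FPKM in LL against 6.73 (DSP), 4.69 (TP) and 5.34 (YY). In the same antioxidant list the selenoproteins GPX4 and SEPW1 were set apart lower, GPX4 at 8.62 FPKM in LL against 19.3 for DSP, 68.0 for TP and 111 for YY. CHORDC1, a partner of HSP90, stood at 38.2 FPKM in LL against 16.7 (DSP), 12.5 (TP) and 13.4 (YY), and was the one of 33 folding genes set apart.

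**Figure D5:**
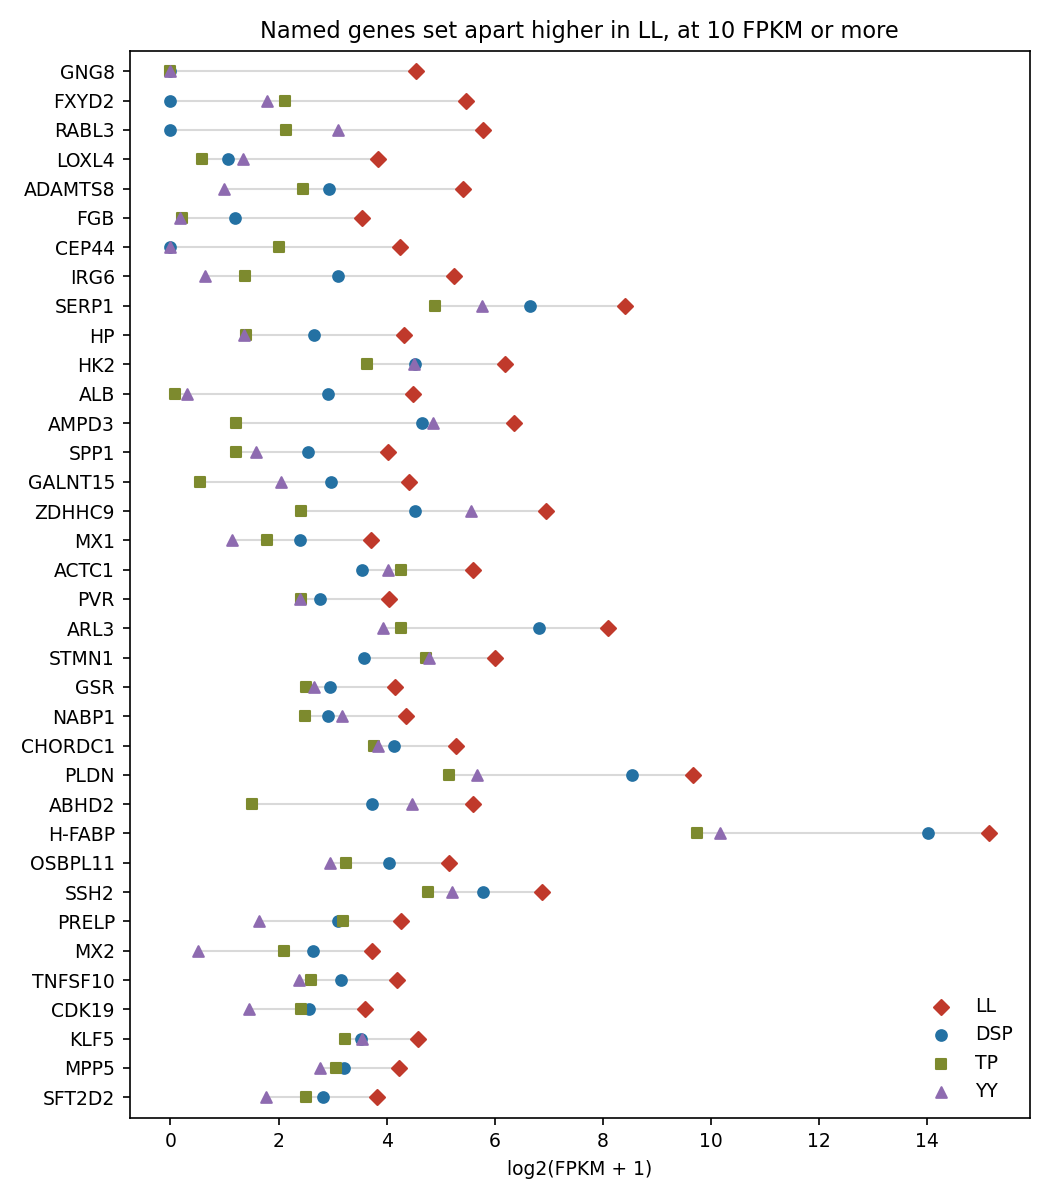
Level on log2(FPKM + 1) in LL (red diamonds), DSP (circles), TP (squares) and YY (triangles) of the 36 named genes set apart higher in LL at 10 FPKM or more, without small RNA names or overlapping entries, sorted by the gap to the nearest breed. LL is the rightmost point in every row by construction, and DSP is often next, as for H-FABP and SERP1.

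The threshold cut through a continuous range. Just inside it on the higher side lay TMEM7, with a gap of 1.001, and an entry with an ID only at 1.002. Just outside lay an entry with an ID only at 0.991 and 1 of the entries named KLF5 at 0.985, while another entry of that name was set apart. On the lower side PSME1 and FAM195A were just inside, both at -1.001, and NDUFV1 at -0.999 and ATP5G1 at -0.997 were just outside.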

How the data were processed

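The authors deposited FPKM values, 1 column for each library, in a table of 18208 genes. TopHat is the aligner named in the submitters' processing notes. For its version, the build, the annotation and the expression program, nothing is given in the sources used here. Libraries were made from total RNA with a TruSeq kit, per the labels' protocols. The other deposited sheets were not used. Some genes set apart are not reported here.

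The file itself named 12322 entries, another 1638 took a name by gene ID from the reference tables and 4248 were left with an ID. Values were compared as log2(FPKM + 1), which understates differences of low genes. The gap is LL minus the nearest other breed, called at 1 or more. The filters were a mean of 1 FPKM and a locus of 300 bp. Where a symbol had several entries, lists took the most abundant.

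Members and lists were chosen with earlier results of these data known. Named genes were the 12 largest gaps in each direction at 5 FPKM or more, up to 4 set-apart and the 2 most abundant members of each list, the genes nearest the threshold, and at most 2 ID-only genes per direction. Another 20 higher genes without small RNA names, the lists of liver and energy-buffering genes and further genes of the lists and the lower group were added after values were seen. The rule was tested on simulated data. Python 3.11.15, numpy 2.4.6, pandas 2.3.3 and matplotlib 3.10.9 were used. Alternatives were other pseudocounts, filters, scalings and thresholds, leaving out each breed, summed symbols, overlapping entries left out and, added later, small RNA and ID-only entries left out.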

Additional observations from a re-analysis of the deposited data

How the results depend on the processing

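No paired analysis was possible because each breed has 1 library. The counts of genes set apart in LL, 122 higher and 172 lower, depended on the settings. They were 179 and 271 with a pseudocount of 0.1, 72 and 68 with a pseudocount of 5, and 80 and 158 with a mean of at least 5 FPKM. They were 199 and 56 with equal sums after removal of the 50 most abundant entries, and 295 and 36 with a common sum over nuclear loci. A threshold of 2 log2 units gave 44 and 4. Leaving out small RNA names and ID-only entries, chosen after the data were seen, gave 50 and 149. Leaving out 1 breed gave between 149 and 714 higher and between 206 and 875 lower genes, the largest counts without DSP. Liver plasma protein genes had a median of 1.17, against 2.95 with a pseudocount of 0.1 and 0.37 with a pseudocount of 5. The energy-buffering list had -1.43, against -1.03 with a pseudocount of 5. The citric acid cycle had -0.61 without the 50 most abundant entries and -0.40 over nuclear loci, where glycolysis had -1.04 and the mitochondrially encoded genes -0.78. MHC class II genes had -0.57, and between -0.90 without DSP or YY and 0.065 without TP. The gaps of named genes were counted as pairs of a gene and an alternative setting. In 173 pairs a gene set apart in LL fell short of the threshold, and in 32 pairs a gene newly passed it. The call stayed the same in 2592 pairs, which include genes set apart in neither setting. Sign was checked only for genes set apart in LL, and none of these changed sign. No depth was available, so low values cannot be graded.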

Other observations

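HOX genes, which mark position along the body axis, were looked at after HOXC10 had been seen among the lower genes. Of 14 entries past the filters LL was the lowest library for 8 and the highest for none, and 3 were set apart lower. Over all genes these shares were 26.9%, 20.8% and 1.49%. The median of LL minus the mean of the others was -0.55. HOXC10 stood at 2.23 FPKM in LL against 28.0 for DSP, 8.79 for TP and 37.5 for YY. HOXD8 stood at 22.3 FPKM in LL against 61.9 (DSP), 53.7 (TP) and 95.1 (YY). HOXD9 stood at 2.79 FPKM in LL against 6.66 for DSP, 8.69 for TP and 25.7 for YY. HOXA9 was not set apart, because TP was also low, at 0.616 FPKM in LL against 22.1 (DSP), 1.46 (TP) and 15.4 (YY). The labels do not say where along the muscle the samples were cut, and its part in these values was not tested.

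The 8 entries on the Y chromosome summed to 63.0 FPKM in LL against 40.5 for DSP, 144 for TP and 0.288 for YY. ZFY stood at 4.42 FPKM in LL against 1.92 (DSP), 4.12 (TP) and 0.0205 (YY). LL thus carried Y chromosome RNA as DSP and TP did, and YY, the other introduced breed, was near 0.

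Muscle ubiquitin ligases, which mark proteins for breakdown, had none set apart in LL. FBXO32 (atrogin-1) was highest in LL, at 306 FPKM against 195 for DSP, 15.2 for TP and 158 for YY. TRIM63 (MuRF1) stood at 604 FPKM in LL against 457 (DSP), 105 (TP) and 619 (YY), so that TP was the low library for both.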
